A study of Rattus norvegicus with 16 samples.

Results

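Albumin, alpha-fetoprotein and the plasma carriers of the liver were followed in rat hepatoma H35 cells after silencing of *Pdrg1*. The members were the 10 genes *Alb*, *Afp*, *Ttr*, *Tf*, *Rbp4*, *Gpc3*, *Ahsg*, *Gc*, *Ambp* and *Fetub*, taken by the gene name of the array design, out of 26269 gene names on the array. They were read by 11 of the 30367 probes, with 2 probes for *Ahsg* and 1 for each of the other genes. Gene expression had been measured on 16 one-color Agilent arrays, 4 biological replicates for each of 4 groups. All groups were H35 cells, a line derived from a rat liver tumor, transfected with a shRNA plasmid and selected with G418. CN-10 was a stable clone carrying a plasmid with a negative control sequence, 4–18 was a stable clone carrying the plasmid shRNA4 against *Pdrg1*, and 3–44 was a stable clone carrying shRNA3. These clones had been selected with G418 at 1.8 mg/ml and then at 4 mg/ml. The group shRNA3T was a pool of shRNA3 transfected cells enriched with 1.8 mg/ml G418 only. Each stable group was therefore a single clone, the pool had not been taken through the second selection, and its only control was the clone CN-10.

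Hepatocytes make most of the carrier proteins of plasma. Albumin binds fatty acids and many small molecules, alpha-fetoprotein takes its place before birth and is switched off in the adult liver, and hepatoma cells often turn alpha-fetoprotein on again. The levels of adult and fetal secreted proteins are therefore used to follow how far liver cells have differentiated.

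Upstream sequences are given first for 5 members, chosen as those whose window holds the letters TGTTTGC. Among them *Alb* and *Afp* are neighbors of one family, *Tf* and the brighter of the 2 *Ahsg* probes were lower in 4–18, and *Ambp* was higher in the shRNA3 groups. RefSeq entries (build GRCr8) were found for 9 of the 10 members, with none for *Fetub*. The 250 bases before the annotated start are shown on the strand of the gene, at chr14:17906980-17907229 (minus strand) for *Alb*, chr14:17875646-17875895 (minus) for *Afp*, chr8:112695377-112695626 (minus) for *Tf*, chr11:91632584-91632833 (minus) for *Ahsg* and chr5:81593858-81594107 (minus) for *Ambp*. Capitals mark letters of the motifs searched on both strands.
Alb: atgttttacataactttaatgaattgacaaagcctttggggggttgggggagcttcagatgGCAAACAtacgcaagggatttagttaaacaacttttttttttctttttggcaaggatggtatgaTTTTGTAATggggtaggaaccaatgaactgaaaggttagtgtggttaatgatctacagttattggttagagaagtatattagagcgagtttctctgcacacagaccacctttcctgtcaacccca
Afp: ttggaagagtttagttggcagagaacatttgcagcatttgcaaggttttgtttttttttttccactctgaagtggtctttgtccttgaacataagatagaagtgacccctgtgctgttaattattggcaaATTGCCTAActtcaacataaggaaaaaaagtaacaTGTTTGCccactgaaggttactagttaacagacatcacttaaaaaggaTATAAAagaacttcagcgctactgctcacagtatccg
Tf: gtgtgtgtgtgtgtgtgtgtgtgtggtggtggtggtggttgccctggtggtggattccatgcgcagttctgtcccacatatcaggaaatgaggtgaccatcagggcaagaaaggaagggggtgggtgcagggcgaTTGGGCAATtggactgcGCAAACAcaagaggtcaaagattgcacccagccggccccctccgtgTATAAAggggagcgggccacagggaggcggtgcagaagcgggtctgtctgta
Ahsg: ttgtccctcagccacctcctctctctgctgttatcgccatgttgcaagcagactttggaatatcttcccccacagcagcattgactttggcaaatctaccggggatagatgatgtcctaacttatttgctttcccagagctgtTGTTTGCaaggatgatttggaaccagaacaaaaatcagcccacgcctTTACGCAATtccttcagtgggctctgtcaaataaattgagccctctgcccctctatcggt
Ambp: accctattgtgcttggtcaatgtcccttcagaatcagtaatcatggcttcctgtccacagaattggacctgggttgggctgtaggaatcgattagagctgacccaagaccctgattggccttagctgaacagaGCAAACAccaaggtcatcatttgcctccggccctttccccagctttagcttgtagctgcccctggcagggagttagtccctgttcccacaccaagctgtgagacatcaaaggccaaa

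The letters TGTTTGC, a form of the FOXA site, were found before *Alb*, *Afp*, *Tf*, *Ahsg* and *Ambp* and in 4.16% of all 33469 upstream windows of the same length, while the form TGTTTAC was in no member's window and in 3.21% of all. The C/EBP letters TTNNGNAAT were found before *Alb*, *Afp*, *Tf* and *Ahsg* and in 10.9% of all windows. TATAAA was found before *Afp*, *Tf* and *Rbp4* and in 12.9% of all. The windows of *Ttr*, *Gc* and *Gpc3*, which are not shown, held none of these exact letters. No 2 of these matches overlapped. The matches describe exact letters only, so a window without them may hold another form of a site. No binding was measured.

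The silenced gene had a lower mean in every silenced group, under 2-fold, and did not pass the test in the main setting. The log2 intensity of *Pdrg1* ran from 13.41 to 13.88 over the control arrays, from 11.57 to 13.34 in 4–18, from 11.89 to 12.95 in 3–44 and from 12.39 to 12.97 in the pool. The log2 fold changes against CN-10 were -0.77 in 4–18, -0.99 in 3–44 and -0.85 in shRNA3T (SE 0.34 each; adjusted p = 0.129, 0.105 and 0.143). The first of these rested on replicate 1 of 4–18 and was -0.33 without it (adjusted p = 0.349), while without scaling between arrays it was -1.51 (adjusted p = 0.02) and was called. For 3–44 and the pool the limma adjusted p depended on how the spread was estimated. It was 0.00892 and 0.00777 with array weights, and 0.0378 and 0.00632 with only the 2 groups compared. Without replicate 1 of 4–18 it was 0.0085 and 0.0147, and each of these differences was under 2-fold. Without replicate 1 of its own group, 3–44 had -0.74 (adjusted p = 0.253) and the pool -0.72 (adjusted p = 0.3). The arrays of 4–18 were the dimmest, with 53.1% to 64.1% of spots well above background against 64.7% to 74.3% in the other groups, and were scanned on another day. The 4 arrays of each group shared a slide that held no other group, and the effects of slide and group cannot be told apart. Of 10 hepatocyte markers, 9 were detected well above background by every array of 3–44, shRNA3T and CN-10, and 7 by every array of 4–18. Their summed log2 intensity ran from 115.78 to 117.08 in CN-10, from 117.27 to 120.26 in 4–18, from 123.63 to 126.26 in 3–44 and from 124.47 to 125.35 in the pool. The list includes the members *Alb* and *Ttr*, and for the other 8 markers the sum ran from 85.10 to 86.21 in CN-10, 82.48 to 85.86 in 4–18, 91.19 to 92.13 in 3–44 and 91.42 to 91.69 in the pool, so the sum in 4–18 was above that of CN-10 only with the members included. The part of these differences in the results was not tested. *Tdo2*, a liver enzyme of tryptophan breakdown, did not stand well above background in any silenced group. The cholangiocyte markers *Epcam* and *Cftr* and the leukocyte markers *Ptprc* and *Cd163* did not stand well above background in any group. Of 5 cholangiocyte, 5 stellate cell or fibroblast, 4 endothelial and 5 macrophage or leukocyte markers, every control array detected 2, 4, 1 and 3, and every 4–18 array 0, 1, 1 and 0; the counts were 1, 4, 1 and 3 in 3–44 and likewise in shRNA3T.

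A gene was called when it differed by at least 2-fold with an adjusted p below 0.05, in limma with Benjamini-Hochberg adjustment over all probes. Against CN-10, 1 member was called higher and 3 lower in 4–18, 2 were called higher and 0 lower in 3–44, and 2 were called higher and 0 lower in shRNA3T. *Ttr* was higher in all 3 silenced groups and *Ambp* in both groups carrying shRNA3, whereas *Tf*, *Fetub* and the brighter *Ahsg* probe were lower in 4–18. *Alb* was called in none. RNA of whole cultures was measured, in which fewer cells making an mRNA and less mRNA per cell cannot be told apart. Over all gene names, 2.62% were called higher and 3.54% lower in 4–18, 0.685% higher and 0.788% lower in 3–44, and 1.2% higher and 1.19% lower in shRNA3T. The replicates of the silenced group and of CN-10 did not overlap for 4 members in 4–18, 3 in 3–44 and 3 in shRNA3T, where the shares over all gene names were 23.5%, 16.3% and 22.2%. The median log2 fold change of the members was -0.06 in 4–18, 0.04 in 3–44 and 0.14 in shRNA3T, beside 0, -0.01 and -0.01 over all gene names. The 3 comparisons used the same CN-10 arrays, so their values are not independent of each other.

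**Figure D1:**
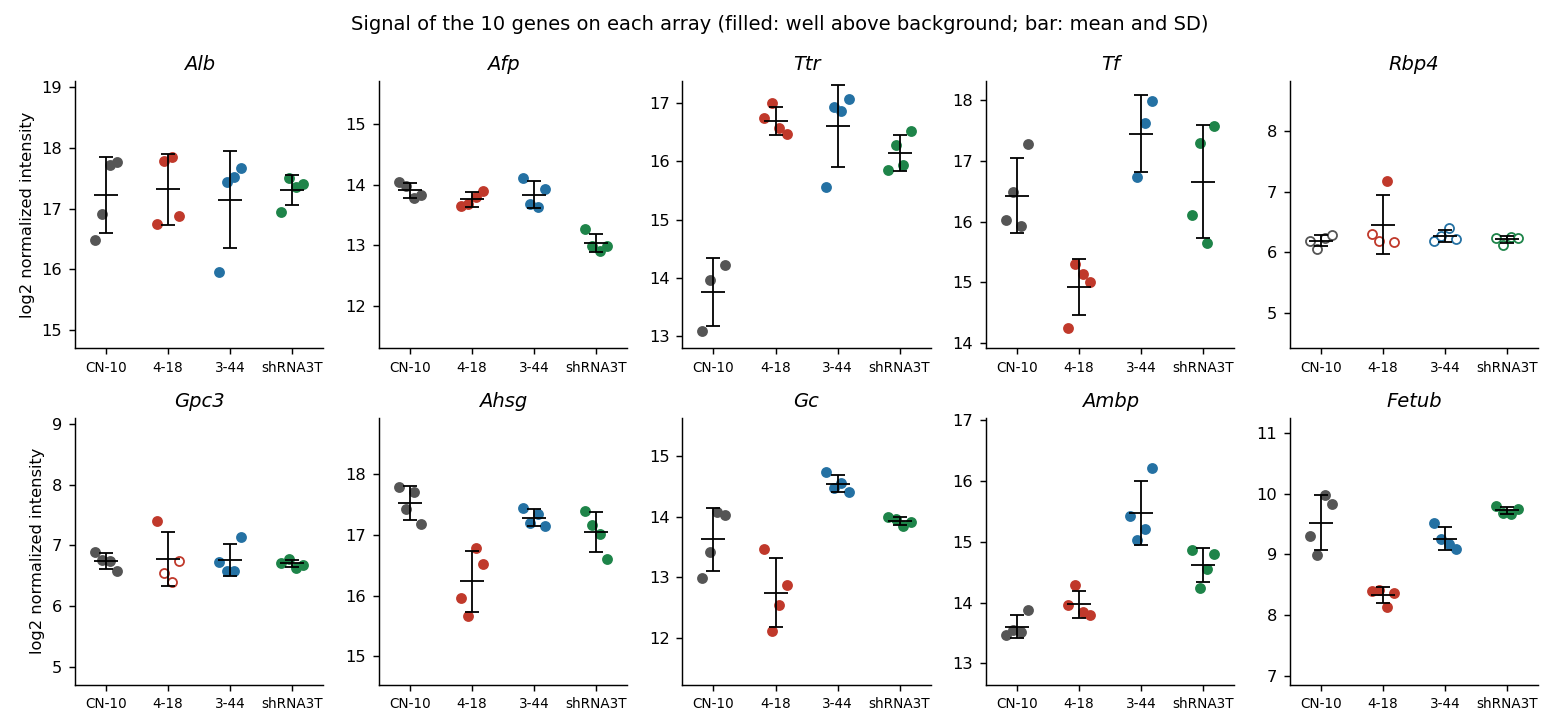
Log2 normalized intensity (vertical axes, each spanning a range of its own) of the 10 genes on each array of CN-10, 4-18, 3-44 and shRNA3T; points are arrays, open where the spot was not well above background, and bars are the group mean with its SD. The Ttr points of the silenced groups lie between 15.56 and 17.07, above the 3 control points at 13.10 to 14.22.

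Albumin mRNA did not pass the test in any silenced group. The *Alb* probe (rn4, chr14:19126980-19127039, minus strand) gave log2 intensities of 16.48, 16.91, 17.71 and 17.76 in CN-10. The values were 16.75, 17.79, 17.85 and 16.87 in 4–18, 15.95, 17.44, 17.52 and 17.67 in 3–44, and 16.94, 17.50, 17.35 and 17.40 in shRNA3T. All 4 groups overlapped, and replicate 1 of 3–44 lay below every other array. The log2 fold changes were 0.10 in 4–18 (95% interval -0.73 to 0.92, adjusted p = 0.899), -0.07 in 3–44 (-0.90 to 0.75, adjusted p = 0.955) and 0.08 in shRNA3T (-0.74 to 0.91, adjusted p = 0.955). The intervals stay within 2-fold in either direction. The sign of these small differences changed with the setting and is not given as a direction. In 4–18 and 3–44 it changed with the scaling among others, and in shRNA3T only without CN-10 replicate 1 or 2.

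*Afp*, the fetal member of the albumin family and a marker of hepatoma cells, was lower in the pool, by less than 2-fold, and in 4–18 its value depended on the scaling. Its probe (rn4, chr14:19092583-19092642, minus strand) lay 34338 bases from that of *Alb*. The log2 intensities were 14.04, 13.98, 13.78 and 13.83 in CN-10, 13.64, 13.68, 13.80 and 13.90 in 4–18, and 14.10, 13.68, 13.63 and 13.93 in 3–44, and these 3 groups overlapped. In shRNA3T they were 13.26, 12.98, 12.91 and 12.99, below every array of the other groups. The log2 fold change against CN-10 was -0.87 in shRNA3T (SE 0.11, 95% interval -1.11 to -0.63, adjusted p = 0.000108), a 1.83-fold difference that did not reach the 2-fold limit. It was -0.15 in 4–18 (adjusted p = 0.392) and -0.07 in 3–44 (adjusted p = 0.8). In the deposited series values 4–18 had -0.90 (adjusted p = 0.00557), also under 2-fold. The difference between the silenced groups was itself tested: *Afp* was 0.72 higher in 4–18 than in shRNA3T (adjusted p = 0.00031) and 0.80 higher in 3–44 than in shRNA3T (adjusted p = 0.000309), again below 2-fold. Without scaling between the arrays the difference between 4–18 and shRNA3T was 0, whereas the *Afp* difference between shRNA3T and CN-10 kept its sign in all 30 alternatives, from -0.95 to -0.57.

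The third measured carrier of the albumin family, *Gc*, encodes the vitamin D-binding protein, which also captures free actin in plasma. Its probe spans chr14:20190531-20192356 in rn4 (plus strand), 1063492 bases from that of *Alb*. The log2 intensities of *Gc* were 12.99, 13.41, 14.08 and 14.02 in CN-10, 13.46, 12.12, 12.54 and 12.87 in 4–18, 14.74, 14.47, 14.56 and 14.41 in 3–44, and 14.00, 13.96, 13.85 and 13.91 in the pool. All 3–44 arrays stood above those of the other groups, and 4–18 overlapped CN-10 through its replicate 1. Against CN-10 the log2 fold change was -0.88 in 4–18 (SE 0.26, adjusted p = 0.0206) and 0.92 in 3–44 (SE 0.26, adjusted p = 0.0384), both short of 2-fold, and 0.30 in shRNA3T (adjusted p = 0.577). Between the silenced groups *Gc* passed both limits, with -1.80 in 4–18 against 3–44 (SE 0.26, adjusted p = 0.000116) and -1.18 in 4–18 against shRNA3T (SE 0.26, adjusted p = 0.0037). The second of these was -0.97 without replicate 2 of 4–18 and -0.70 with the processed signal of the scanner, below the limit. The drop in 4–18 against CN-10 grew past 2-fold without CN-10 replicate 1 (-1.09) and without 4–18 replicate 1 (-1.11), and the rise in 3–44 did so without CN-10 replicate 3 (1.07) or 4 (1.05). *Gc* was also called lower in 4–18 without scaling between arrays (-1.62, adjusted p = 0.00188) and in the deposited series values (-1.65, adjusted p = 0.00152). Other alternatives made it smaller. Over all 30, the difference from CN-10 ran from -1.65 to -0.40 in 4–18 (limma adjusted p up to 0.249). In 3–44 it ran from 0.71 to 1.07 (adjusted p up to 0.452). *Afm*, the remaining gene of the family, was well above background on 0 of 4 arrays in CN-10, 4–18 and shRNA3T and on 1 in 3–44. None of the 4 genes of the family was called against CN-10 in any silenced group in the main setting.

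*Ttr*, which encodes transthyretin, the carrier of thyroxine and, together with Rbp4, of retinol, showed the largest difference of the 10 members in each comparison with CN-10. Its probe lies at chr18:12413621-12413680 in rn4 (plus strand). The log2 intensities were 13.10, 13.96 and 14.22 in CN-10, where the spot of replicate 3 carried an outlier flag and was left out. They were 16.74, 17.00, 16.56 and 16.46 in 4–18, 15.56, 16.93, 16.85 and 17.07 in 3–44, and 15.85, 16.27, 15.94 and 16.52 in shRNA3T. Every array of the silenced groups was above every array of CN-10, and the silenced groups overlapped each other. *Ttr* rose 7.62-fold in 4–18 (log2 fold change 2.93, SE 0.34, adjusted p = 2.21e-05), 7.17-fold in 3–44 (2.84, SE 0.34, adjusted p = 0.000125) and 5.22-fold in shRNA3T (2.39, SE 0.34, adjusted p = 0.000319). With the flagged spot kept, the log2 fold changes were 3.09, 3.01 and 2.55. *Ttr* was called in all 3 comparisons under each of the 30 alternatives, with log2 fold changes from 2.06 to 3.27. Between the silenced groups the differences were 0.09 in 4–18 against 3–44 (95% interval -0.59 to 0.76), 0.55 in 4–18 against shRNA3T (-0.13 to 1.22) and 0.46 in 3–44 against shRNA3T (-0.22 to 1.13), and none passed the test.

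The partner of transthyretin could not be followed. *Rbp4*, the retinol-binding protein of plasma, was well above background on 1 of the 4 arrays of 4–18 and on 0 of 4 in each other group, so no fold is given. Its mean log2 intensity was 6.45 in 4–18, 6.26 in 3–44, 6.21 in shRNA3T and 6.19 in the control. Of 11 genes of thyroid hormone and retinol carriage on the array, *Ttr* was the 1 called in each silenced group. The median log2 fold change of these 11 genes was 0.09 in 4–18, 0.01 in 3–44 and 0.04 in shRNA3T. *Serpina7*, the thyroxine-binding globulin, did not stand well above background in any group.

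**Figure D2:**
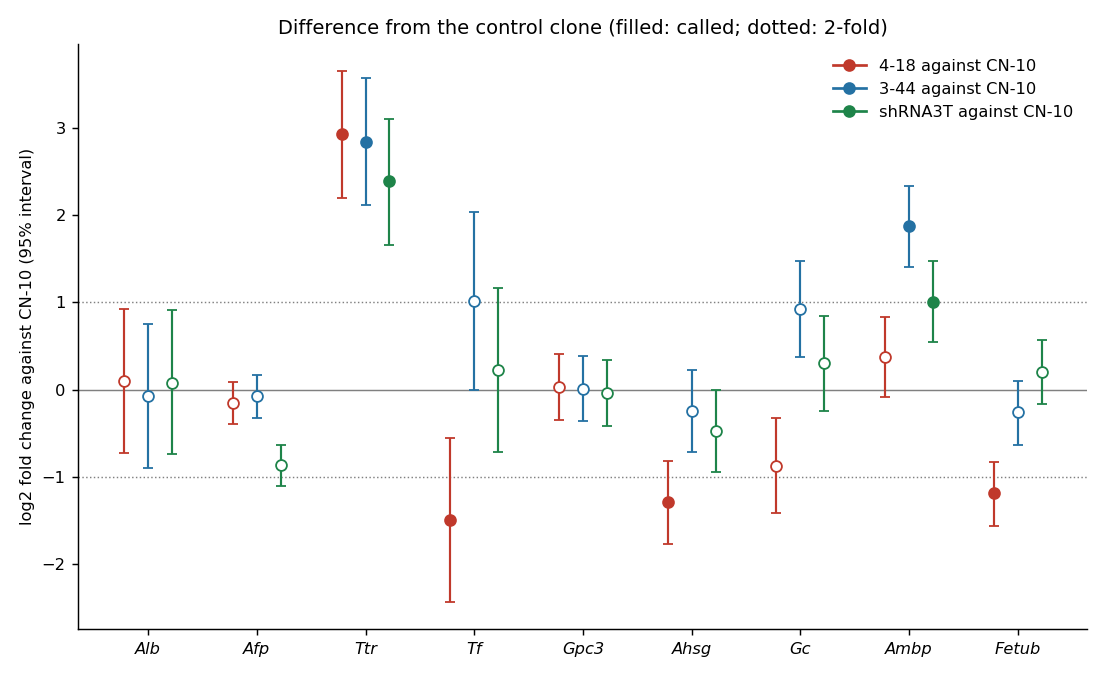
Log2 fold change against CN-10 (vertical axis) of 9 genes in 4-18, 3-44 and shRNA3T; bars are 95% intervals, filled points were called, and dotted lines mark 2-fold. Rbp4 is left out because it was at background, and the Gpc3 point of 4-18 rests on 1 of 4 arrays well above background. Ttr stands between 2.39 and 2.93, and Tf, Ahsg (brighter probe) and Fetub are filled below the line in 4-18.

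Transferrin mRNA was lower in 4–18. *Tf* encodes the iron carrier of plasma, and its probe lies at chr8:108217778-108217837 in rn4 (minus strand). The log2 intensities were 16.02, 16.49, 15.92 and 17.27 in CN-10 and 14.25, 15.30, 15.13 and 15.01 in 4–18. In 3–44 they were 16.74, 17.62 and 17.98, with the flagged spot of replicate 1 left out, and in shRNA3T 16.11, 17.30, 15.64 and 17.58. The 4–18 arrays were below all others, while CN-10, 3–44 and shRNA3T overlapped. *Tf* fell 2.83-fold in 4–18 against CN-10 (log2 fold change -1.50, SE 0.44, adjusted p = 0.0224). It was 2.52 lower on the log2 scale in 4–18 than in 3–44 (log2 fold change -2.52, SE 0.47, adjusted p = 0.00143) and 1.73 lower than in shRNA3T (-1.73, SE 0.44, adjusted p = 0.0115). Neither shRNA3T (0.23, adjusted p = 0.865) nor 3–44 (1.02, adjusted p = 0.256) passed the test against CN-10. The call in 4–18 against CN-10 was lost without CN-10 replicate 2 (-1.48, adjusted p = 0.0514), without CN-10 replicate 4 (-1.23, adjusted p = 0.0713), without 4–18 replicate 1 (-1.28, adjusted p = 0.0681) and with array weights (-1.48, adjusted p = 0.148), while the sign stayed in all 30 alternatives. The size depended on the processing, from -2.15 in the deposited series values to -1.06 with the processed signal against CN-10, and over all alternatives from -3.27 to -2.02 against 3–44 and from -2.48 to -1.33 against shRNA3T. The difference from shRNA3T was not called with array weights either (-1.65, adjusted p = 0.0807).

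Other genes of iron and haem carriage moved in both directions. Of 13 on the array, with *Ftl1* not found by name, 2 were called higher and 2 lower in 4–18, 1 higher in 3–44, and 2 higher and 1 lower in shRNA3T. The lower genes were *Tf* and *Hamp* in 4–18 and *Hamp* in shRNA3T. *Hamp* encodes hepcidin, the hormone that limits iron release into plasma, and its log2 fold change was -2.28 in 4–18 (SE 0.13, adjusted p = 1.25e-08) and -4.12 in shRNA3T (SE 0.13, adjusted p = 7.27e-11). In 3–44 it was -0.48, under 2-fold. The shRNA3T mean of *Hamp* was 6.98, near background, so the size of that fall is uncertain. *Tfr2*, a receptor that senses transferrin in hepatocytes, rose by 1.22, 1.32 and 1.00 in 4–18, 3–44 and shRNA3T on the log2 scale (SE 0.25 in each). *Hp*, the carrier of free haemoglobin, rose by 1.68 in 4–18 and 1.10 in shRNA3T. *Tfrc*, the main transferrin receptor, had -0.68 in 4–18, 0.02 in 3–44 and -0.14 in shRNA3T and was not called.

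Fetuin-B was lower in 4–18, and the 2 probes of fetuin-A disagreed there. *Ahsg* encodes fetuin-A, which keeps calcium phosphate in solution, and *Fetub* encodes fetuin-B, an inhibitor of the egg-coat protease ovastacin. The brighter *Ahsg* probe (rn4, chr11:80331051-80331110, minus strand) gave 17.79, 17.43, 17.70 and 17.18 in CN-10, 15.96, 15.67, 16.78 and 16.52 in 4–18, 17.44, 17.19, 17.35 and 17.14 in 3–44, and 17.39, 17.16, 17.02 and 16.61 in shRNA3T. The 4–18 arrays were below those of CN-10 and 3–44 and overlapped the lowest array of shRNA3T. At this probe *Ahsg* fell 2.45-fold in 4–18 against CN-10 (log2 fold change -1.29, SE 0.22, adjusted p = 0.000528) and 2.06-fold against 3–44 (-1.05, SE 0.22, adjusted p = 0.00303). The shRNA3T value against CN-10 was -0.48 (adjusted p = 0.214) and that of 3–44 was -0.25 (adjusted p = 0.617). The difference from 3–44 was -0.99 without replicate 1 of 3–44, -0.95 without replicate 1 of 4–18 and -0.85 without replicate 2 of 4–18, short of 2-fold, and also -0.74 with the processed signal and -0.87 with array weights.

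The second probe named *Ahsg* (rn4, chr11:80327198-80327257, minus strand) lies 3793 bases from the first and is assigned to an Ensembl transcript. It gave 11.75, 11.68, 11.39 and 11.51 in CN-10 and 12.87, 12.76, 12.42 and 12.39 in 4–18. The 4–18 arrays were above those of CN-10, the reverse of the first probe, with a log2 fold change of 1.03 (SE 0.16, adjusted p = 0.000209). Before scaling, the raw mean signal of this probe was 3430 to 3600 in CN-10 and 3540 to 5150 in 4–18, so the groups overlapped on that scale. The second probe differed by 0.55 in shRNA3T (adjusted p = 0.0346, under 2-fold) and by 0.29 in 3–44 (adjusted p = 0.341). The mean of both probes was not called in 4–18 (-0.13, adjusted p = 0.499), nor was the first probe with the processed signal of the scanner (-0.94, adjusted p = 0.000984). Against 3–44 the second probe was 0.73 higher in 4–18 (adjusted p = 0.00335), and the mean of both probes was not called (-0.16, adjusted p = 0.412). The direction of *Ahsg* in 4–18 therefore depends on the probe.

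**Figure D3:**
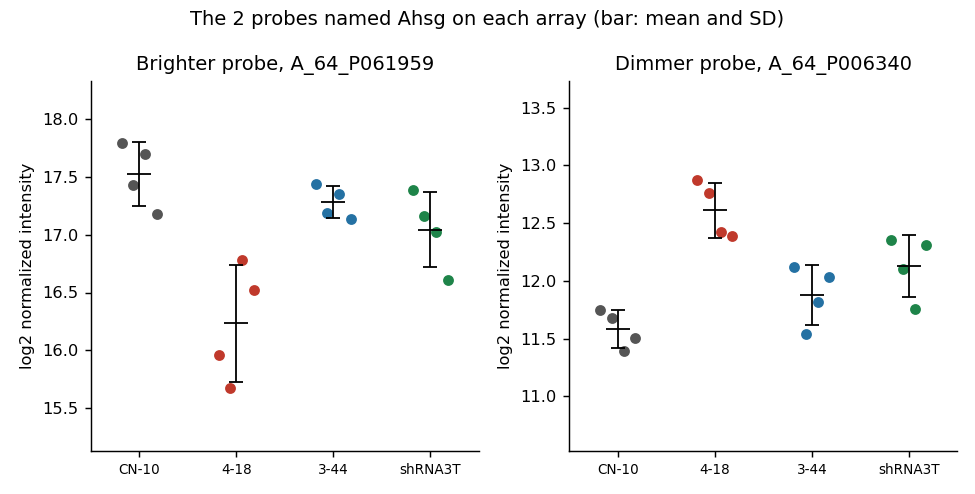
Log2 normalized intensity (vertical axes) of the 2 probes named Ahsg on each array of the 4 groups; points are arrays and bars are the mean with its SD. In 4-18 the brighter probe (mean 16.23) lies below CN-10 (17.53), and the dimmer probe (12.61) lies above it (11.58).

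*Fetub*, read at chr11:80277150-80277209 in rn4 (minus strand), 53842 bases from the brighter *Ahsg* probe, had log2 intensities of 9.30, 8.99, 9.97 and 9.83 in CN-10 and 8.40, 8.42, 8.13 and 8.36 in 4–18. They were 9.52, 9.25, 9.17 and 9.08 in 3–44 and 9.80, 9.68, 9.67 and 9.75 in shRNA3T. The 4–18 arrays were below all others, and the CN-10 arrays spanned those of 3–44 and shRNA3T. *Fetub* fell 2.29-fold in 4–18 against CN-10 (log2 fold change -1.19, SE 0.17, adjusted p = 0.000112) and 2.64-fold against shRNA3T (-1.40, SE 0.17, adjusted p = 3.39e-05). Against 3–44 the value was -0.93 (adjusted p = 0.00104), under 2-fold, and -1.18 without scaling between arrays, where it was called. Over all 30 alternatives it ran from -1.18 to -0.58, with a limma adjusted p of up to 0.0757. The shRNA3T value against CN-10 was 0.20 (adjusted p = 0.572) and that of 3–44 was -0.26 (adjusted p = 0.454). With scaling to the 75th percentile, which raised the median of all probes in 4–18 by 0.86, the difference from CN-10 was -0.87 and was not called.

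*Ambp* rose in both groups that carry shRNA3. Its product is split into alpha-1-microglobulin, a haem-binding carrier, and bikunin, the protease inhibitor that is joined to heavy chains in plasma. Its probe (rn4, chr5:80120568-80120627, minus strand) gave 13.47, 13.55, 13.51 and 13.88 in CN-10, 13.96, 14.29, 13.84 and 13.79 in 4–18, 15.43, 15.03, 15.22 and 16.22 in 3–44, and 14.86, 14.24, 14.56 and 14.80 in shRNA3T. The 3–44 arrays were above all others, the shRNA3T arrays were above those of CN-10, and 4–18 overlapped CN-10. *Ambp* rose 3.67-fold in 3–44 (log2 fold change 1.88, SE 0.22, adjusted p = 7.11e-05), and this was called in each of the 30 alternatives. In shRNA3T it rose 2.02-fold (1.01, SE 0.22, adjusted p = 0.00577), at the limit: the call was lost in 10 of the 30 alternatives, with log2 fold changes from 0.93 to 1.14. Among the left-out arrays these were CN-10 replicates 1 (0.97), 2 (1.00) and 3 (0.98) and shRNA3T replicates 1 (0.93) and 4 (0.95). In 4–18 the value was 0.37 (adjusted p = 0.257). It was -0.36 without scaling between arrays and 1.05 (adjusted p = 0.00264), a call, with the processed signal, so the value in 4–18 depended on the processing. The clones differed directly, with *Ambp* 2.84-fold lower in 4–18 than in 3–44 (-1.51, SE 0.22, adjusted p = 0.00013), but this was -0.89 (adjusted p = 0.00925) and not called with the processed signal. Between the shRNA3 groups the value was 0.86 higher in 3–44 (adjusted p = 0.0184), under 2-fold, and 1.01 without replicate 2 of 3–44. Leaving out 1 replicate at a time gave 0.61 to 1.01. Over all 30 alternatives the limma adjusted p reached 0.125.

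Among the heavy chain genes, *Itih4* fell in 4–18 and rose in both shRNA3 groups, and *Itih3* fell in 4–18 and rose in the pool. Of 9 fetuin, bikunin, heavy chain and kininogen genes on the array, with *Itih2* not found by name, 0 were called higher and 6 lower in 4–18, 2 higher and 0 lower in 3–44, and 4 higher and 0 lower in shRNA3T. Their median log2 fold change was -1.29 in 4–18, 0.19 in 3–44 and 0.55 in shRNA3T. These values take *Ahsg* by its brighter probe, and with the second probe 1 was called higher and 5 lower in 4–18, with a median of -1.19. *Itih4*, an acute phase protein of the heavy chain family, had log2 fold changes of -1.70 in 4–18 (SE 0.45, adjusted p = 0.012), 2.70 in 3–44 (SE 0.45, adjusted p = 0.00146) and 5.28 in shRNA3T (SE 0.45, adjusted p = 2.41e-06). In 4–18 its probe was well above background on 3 of 4 arrays. *Itih3*, a heavy chain, fell by 2.27 on the log2 scale in 4–18 (SE 0.20, adjusted p = 1.1e-06), had 0.11 in 3–44 and rose by 1.12 in shRNA3T (SE 0.20, adjusted p = 0.00158). *Itih1* had -0.93 in 4–18, 0.93 in 3–44 and -0.13 in shRNA3T, all under 2-fold. Among the kininogens, which share the fetuins' cystatin fold, *Kng1* fell by 3.47 on the log2 scale in 4–18 (SE 0.34, adjusted p = 3.38e-06). *Kng2* did not stand well above background in 4–18 and was at least 3.6-fold lower there than in CN-10 (adjusted p = 1.04e-06), while it was called higher in shRNA3T (log2 fold change 1.2, SE 0.17, adjusted p = 0.000268) and had 0.39 in 3–44. *Kng1* and *Kng2* are close paralogs whose probes may cross-react, so their split is uncertain.

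**Figure D4:**
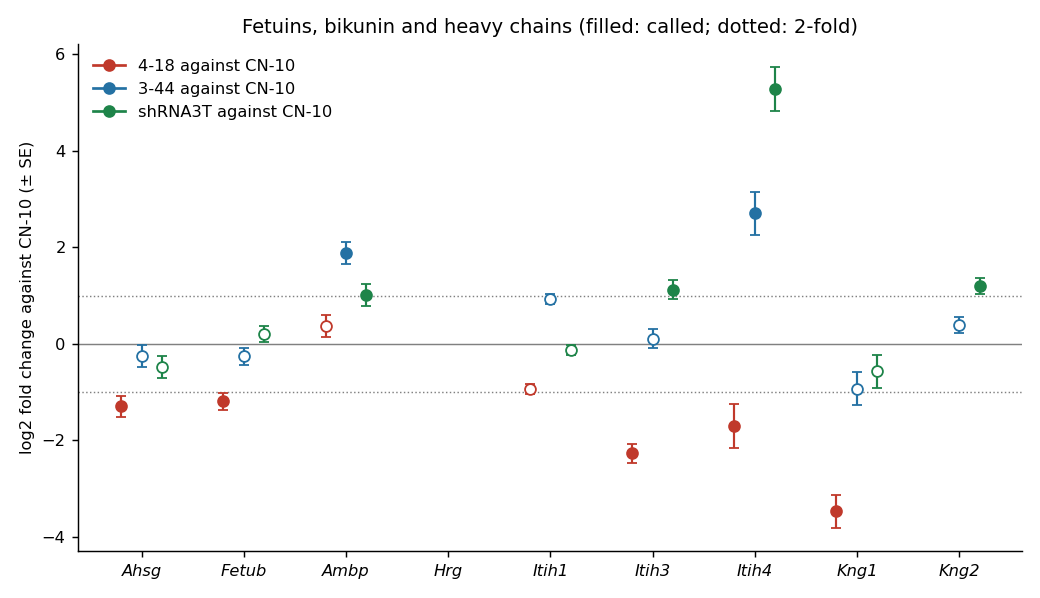
Log2 fold change against CN-10 (vertical axis) of the fetuin, bikunin, heavy chain and kininogen genes in 4-18, 3-44 and shRNA3T; bars are the SE, filled points were called, and dotted lines mark 2-fold. Hrg and the 4-18 value of Kng2 are left out because a group was at background. Itih4 runs from -1.70 in 4-18 to 5.28 in shRNA3T.

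*Gpc3*, a heparan sulfate proteoglycan of the cell surface found in fetal liver and liver tumors, stayed near background. It stood well above background on each of the 4 arrays of CN-10, 3–44 and shRNA3T and on 1 of 4 in 4–18, with mean log2 intensities of 6.74, 6.75, 6.70 and 6.77 in that order. The log2 fold changes were 0.01 in 3–44 (95% interval -0.36 to 0.39) and -0.04 in shRNA3T (-0.42 to 0.34), and neither passed the test. The value in 4–18, where 3 of the 4 arrays were not well above background, was 0.03 in the main setting, -0.63 with the processed signal and 1.03 (adjusted p = 0.0451) with scaling to the 75th percentile, and is not read as a difference. The sign in 3–44 also changed with the scaling. Of 8 fetal and oncofetal liver genes on the array, with *Igf2bp3* not found by name, 0 were called in each silenced group. Many of these probes were near background, where a change may go unseen: 2, 4 and 3 of the 8 genes stood well above background on all arrays of both groups in 4–18, 3–44 and shRNA3T against CN-10, *Afp* and *Igf2bp2* among them each time. *Igf2* and *H19*, which are imprinted fetal growth genes, were well above background on at most 1 and 2 of 4 arrays in any group.

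At the main setting 5 of the 10 members were called between silenced groups. In 4–18 against 3–44, 4 members were called lower (*Tf*, *Gc*, *Ambp* and *Ahsg*, the last at its brighter probe only) and 0 higher, where 2.88% of all gene names were called lower and 2.1% higher. In 4–18 against shRNA3T, 3 were called lower (*Tf*, *Gc* and *Fetub*) and 0 higher, beside 2.7% and 1.86% of all gene names. In 3–44 against shRNA3T, which carry the same shRNA, 0 members were called, beside 0.944% higher and 1.18% lower over all gene names. In that last comparison *Afp* and *Ambp* had an adjusted p below 0.05 in limma but were under 2-fold. Ordered by group mean, 4–18 was lowest for *Tf*, *Gc*, *Fetub* and the brighter *Ahsg* probe and highest for the other *Ahsg* probe, CN-10 was lowest for *Ttr* and *Ambp*, and shRNA3T was lowest for *Afp*. The sizes of the other differences called in 4–18 also moved with the processing. Against CN-10 *Fetub* ran from -1.59 to -0.87 and *Ahsg* from -1.84 to -0.13 (the latter with the mean of its probes). Against 3–44 *Gc* ran from -2.47 to -1.31, *Ambp* from -2.16 to -0.89 and *Ahsg* from -1.68 to -0.16, and against shRNA3T *Gc* ran from -1.90 to -0.70 and *Fetub* from -1.84 to -1.11. *Ttr* in 4–18 stayed between 2.33 and 3.27.

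Adult plasma proteins outside the membership were followed for context. Of 20 such genes, 3 were called higher and 5 lower in 4–18, 6 higher and 0 lower in 3–44, and 8 higher and 1 lower in shRNA3T. These counts take the brightest probe of a gene, and some calls did not hold at a second probe. *Serpinc1*, which encodes antithrombin, was called higher in all 3 (1.80, 2.23 and 1.80) but had -0.17, -0.06 and -0.06 at its second probe. In shRNA3T the second probes of *Plg*, the lower gene, and of *Fgb* gave 0.04 and 0.32, where the first gave -1.22 and 1.16. *Serpina6*, the corticosteroid carrier, rose in all silenced groups, by 5.15, 2.74 and 2.87 on the log2 scale in 4–18, 3–44 and shRNA3T (SE 0.20 in each). In CN-10 its mean was 6.89, near background, with 3 of 4 arrays well above it, so the sizes of these rises are uncertain. *Pzp*, a plasma protease inhibitor, rose by 3.86 in 3–44 and 3.24 in shRNA3T. *Apoa1*, the main protein of high-density lipoprotein, fell by 2.12 in 4–18, rose by 2.18 in 3–44 and had 0.04 in shRNA3T. In 4–18 its probe was well above background on 3 of 4 arrays. *Fga*, a fibrinogen chain, fell by 1.25 in 4–18 and rose by 1.66 in 3–44 and 2.65 in shRNA3T.

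Of 20 transcription factors listed as regulators of the albumin or alpha-fetoprotein genes, 3 were called higher in 4–18, 2 in 3–44 and 2 in shRNA3T, and 0 were called lower. *Dbp*, which binds the albumin promoter, rose by 1.51, 1.00 and 1.18 on the log2 scale (SE 0.12 in each), and its relative *Tef* rose by 1.59 in 4–18 and 1.18 in shRNA3T. *Nr5a2*, a nuclear receptor that acts on *Afp*, was called in 4–18 (1.39) and 3–44 (1.07), but its second probe gave 0.60 and 0.17 and was not called. *Hnf4a* had -0.37, 0.45 and 0.16, *Cebpa* 0.62, 0.58 and 0.35, and *Zhx2*, a repressor of *Afp*, 0.63, -0.11 and 0.05 in 4–18, 3–44 and shRNA3T, none called. Among 8 receptors of plasma carriers, 3 were called higher in 4–18, 1 in 3–44 and 2 in shRNA3T, and 0 lower. *Cubn* and *Lrp2*, the endocytic receptors that take up albumin and Gc, rose by 1.97 and 1.41 in 4–18. *Asgr1*, the hepatocyte receptor for desialylated plasma proteins, rose by 2.87 in shRNA3T.

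The genes whose pattern over the arrays was most like that of a member were found by Pearson's r over 15530 genes. For *Ttr* these were *Mxd4* (r = 0.935), *Ankrd37* (0.925) and *Wdr37* (0.919) over 15 arrays. For *Afp* they were *Sardh* (0.974), *Mcm5* (0.947) and *Lsm6* (0.944) over 16 arrays, all 3 lowest in shRNA3T. For *Alb* the nearest was *Chd1* (0.933) and for *Tf* *Stau1* (0.933, over 15 arrays). For *Ahsg* the nearest was *Grk6* (0.97), for *Fetub* among named genes *B2m* (0.952), and for *Ambp* the histone gene *Hist1h2ai* (0.909) and the coagulation gene *F10* (0.898). Among the members themselves the highest values were 0.69 for *Tf* and *Gc*, 0.68 for *Gc* and *Fetub* and 0.64 for *Ahsg* and *Fetub*. *Alb* and *Afp* had r = -0.30, and *Ttr* and *Ahsg* -0.58. The *Ahsg* values are those of its brighter probe. The second probe had r = -0.81 with the first, -0.62 with *Fetub* and 0.51 with *Ttr*, so the likeness of *Ahsg* to other genes depends on the probe. The arrays of a group share a clone or pool and a slide, so these values describe the 16 arrays and were not tested.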

How the data were processed

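Total RNA of 4 biological replicates per group had been labeled with Cy3 and hybridized to a rat 4x44K expression array. The authors quantified the spots of the scanned arrays with Feature Extraction 10.7.3.1, and the deposited values of each array are the linear intensity of each spot (mean and median signal, local background median and a processed signal) with flags. The deposited series table holds log2 values whose decimal points were lost; once restored, it matched the log2 of the normexp-corrected median signal to within 3.99e-11, without scaling between arrays. Groups came from the titles of the samples.

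Signals were background corrected with normexp (offset 50) on all spots, control spots and flagged outlier spots were left out, arrays were quantile normalized, and spots of a probe were averaged. In limma 3.58.1 (R 4.3.3), 1 mean per group was fitted over 16 arrays with empirical Bayes moderation and Benjamini-Hochberg adjustment over 30367 probes. A gene with several probes was given by the probe with the highest mean. Intervals are 95% limma intervals. No spot was saturated, and the precision is set by the 4 arrays per group. Each stable group was a single clone. The SEs, intervals and adjusted p therefore describe the spread between replicates and do not cover differences between clones. The script was tested on simulated data. The members, gene lists and the rule for naming genes were chosen with earlier results of these data known. All members were named, and from each list at most 4 called genes by size; further list genes, mostly not called, were named for their role after their values were seen. Levels of different probes were compared only to choose the brightest probe of a gene. Alternatives varied background, scaling, filters, fold limit, array weights, probe choice, replicate block and each replicate in turn. Those for *Pdrg1*, for marker sums without members, for dim list genes and for the second *Ahsg* probe in lists and correlations were added after the data were seen. Probe positions and the distances between probes are those of the array design in build rn4. No gene annotation of that build was used here.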

Additional observations from a re-analysis of the deposited data

Results flagged for a closer look

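An array far from the other replicates was found in 4 of the 42 sets of replicates examined, where chance gives about 1 in 20. Replicate 1 of 3–44 was low for *Alb* (15.95, next 17.44) and for *Ttr* (15.56, next 16.85). For *Alb*, replicate 1 was also the lowest array of CN-10 (16.48), 4–18 (16.75) and shRNA3T (16.94). The same held for *Pdrg1* in every group, but not for *Ttr* in 4–18. *Rbp4* was high in replicate 3 of 4–18 (7.18, next 6.30) and low in replicate 2 of shRNA3T (6.12), the latter with no array above background.

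The silenced groups differed from each other in the direct limma comparison for 5 genes, *Ahsg* at its brighter probe only. In 4–18 against 3–44 the log2 differences were -2.52 for *Tf*, -1.05 for *Ahsg*, -1.80 for *Gc* and -1.51 for *Ambp*. In 4–18 against shRNA3T they were -1.73 for *Tf*, -1.18 for *Gc* and -1.40 for *Fetub*. The arrays of 4–18 were also the dimmest and lay on a slide of their own, and the part of this in the differences cannot be told apart from the clone.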

How the results depend on the processing

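The limits are set by 4 arrays a group, by a single clone for each stable group, and by the dim arrays of 4–18. Replicate SDs of up to 0.80 for *Alb* and 0.93 for *Tf* set them too. All 60 differences of the 10 members were recomputed under 30 settings. Of the values, 1654 kept their sign and their status as called or not, 39 became called and 27 were no longer called. Another 74 changed sign, all 74 of differences not called in the main setting. An uncalled difference could cross the fold limit or the p limit alone and keep its status. The 41 differences described in the report account for 1136, 25, 27 and 42 of these, and the sign changes listed are mainly theirs. Against CN-10, *Ttr* in all 3 comparisons and *Ambp* in 3–44 were called in every setting. Between silenced groups, so were *Tf* and *Gc* in 4–18 against 3–44 and *Fetub* in 4–18 against shRNA3T. The cause of the other changes was not tested, except that a lower fold limit admits more genes.

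The main counts were 4 members in 4–18, 2 in 3–44 and 2 in shRNA3T against CN-10, 4 in 4–18 against 3–44, 3 in 4–18 against shRNA3T and 0 in 3–44 against shRNA3T. In shRNA3T against CN-10 the count was 1 with 75th percentile scaling, no scaling, cyclic loess, the deposited series values and array weights, each time through *Ambp*. In 4–18 against shRNA3T it was 5 with 75th percentile scaling, no scaling and the deposited series values, and 6 with a fold limit of 1.5 or none. It was 2 in 4–18 against 3–44 with the processed signal, and 2 in 3–44 against shRNA3T with a fold limit of 1.5 or none. Leaving out 1 replicate at a time gave counts of 3 to 5, 2 to 3, 1 to 2, 3 to 4, 2 to 3 and 0 to 1 in the order above. With the replicate number as a block, the counts were 4, 2, 2, 4, 3 and 0, and it changed no call of a member. The labels do not say that a number marks a shared batch, so no pairing was assumed. Deviations from the group means correlated with a median r of 0.14 for same-numbered and -0.03 for other samples. All 6 pairs of replicates numbered 1 were positive (0.19 to 0.48), whereas 14 of all 24 same-numbered pairs exceeded 0.1, and a shared effect of replicate 1 was not tested further. For *Pdrg1*, examined this way after the data were seen, the block left the fold changes at -0.77, -0.99 and -0.85 with SE 0.21 and adjusted p = 0.0176, 0.0108 and 0.0183 in limma, still under 2-fold.

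Scaling to the 75th percentile moved the median of all probes in 4–18 against CN-10 from 0.006 to 0.862, and 94.7% of calls were then higher, beside 43.1% in the main setting, 7.33% without scaling and 7.17% in the deposited series values. For that comparison *Rbp4* and *Gpc3*, near background in 4–18, were then called higher.

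Signs changed as follows. Without scaling the values in 4–18 against CN-10 were -0.37 for *Alb* and -0.36 for *Ambp*, *Gpc3* in 3–44 was -0.09, *Ttr* was -0.52 in 4–18 against 3–44 and -0.15 against shRNA3T, and *Afp* in 4–18 against shRNA3T was 0. In the deposited series values the same 6 were -0.36, -0.33, -0.14, -0.48, -0.10 and 0. With the 75th percentile *Alb* in 3–44 was 0.10. With cyclic loess *Gpc3* was -0.03 in 4–18 and -0.05 in 3–44. With the processed signal *Gpc3* was -0.63 in 4–18 and -0.16 in 3–44, in 3–44 *Alb* was 0.11 and *Afp* 0, and *Ambp* in 4–18 against shRNA3T was 0.03. With array weights *Gpc3* was -0.02 in 4–18 and -0.09 in 3–44, *Alb* in 3–44 was 0.15, and *Ttr* in 4–18 against 3–44 was -0.21. With the mean of its probes *Ahsg* was 0.02 in 3–44 and 0.03 in shRNA3T. Leaving out 1 replicate, *Alb* ran from -0.15 to 0.28 in 4–18, -0.32 to 0.33 in 3–44 and -0.16 to 0.26 in shRNA3T, *Gpc3* from -0.18 to 0.16, -0.11 to 0.08 and -0.09 to 0.01, *Tf* in shRNA3T from -0.08 to 0.57, and *Ttr* in 4–18 against 3–44 from -0.26 to 0.24.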
